A study of Mus musculus with 10 samples.

Results

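Chemokine receptors steer regulatory T cells (Tregs) between lymphoid organs and tissues, and the chromatin around 9 of their genes, Ccr2, Ccr3, Ccr4, Ccr6, Ccr8, Cxcr3, Cxcr4, Cxcr5 and Cxcr6, was examined in spleen and lung Tregs with and without the lipid kinase Vps34. Every accessible region (peak) that lay in the body of one of these genes or within 10 kb of it, on the GRCm38 annotation of the mouse genome, was taken as a member. This gave 61 of the 97385 peaks, from 3 each at Ccr3 and Cxcr3 to 15 at Cxcr5, and no peak belonged to more than 1 of the genes. All 61 of 61 held enough counts to be tested, as did 97109 peaks of the whole table.

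Accessibility was measured by ATAC-seq, in which the transposase Tn5 inserts sequencing adaptors into open DNA, in Tregs sorted as CD4+ Foxp3-YFP+ TCRb+ cells from mice aged 10 days. Every mouse carried the Foxp3Cre allele, which expresses Cre recombinase with YFP from Foxp3, the gene that marks Tregs, so that deletion was driven in cells that had turned on Foxp3. Pik3c3, which encodes Vps34, was floxed on both alleles in Vps34-deficient mice (Pik3c3 fl/fl), whereas controls were Pik3c3 +/+ or +/fl, and the labels do not say which control library came from which. The 10 libraries formed 4 groups, with 2 control and 4 Vps34-deficient libraries from spleen and 2 of each genotype from lung, and since nothing in the labels ties libraries to separate animals, the p-values measure the spread between these libraries.

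Library totals ran from 9405823 to 22439699 counts, and 4553 to 11451 of them fell in the 61 peaks. Levels are given as counts divided by the library total and scaled to CPM, and most counts came in pairs of mates. Across all peaks, lung control replicate 2 resembled the spleen controls more than replicate 1 did (mean r = 0.905 against 0.858), and for the called peaks described singly and the called average effects of the 9 receptors the libraries on which a call depends are named. Over the 6 peaks in and near the deleted gene, Pik3c3, the summed level was 73.4 to 78.5 CPM in spleen controls, 78.1 to 83.2 in Vps34-deficient spleen, 66.9 to 70.98 in lung controls and 71.96 to 77.7 in Vps34-deficient lung. These peaks do not read out the loss of coding sequence, so they do not check the genotype labels. All 6 Treg markers examined (Foxp3, Il2ra, Ctla4, Ikzf2, Cd4 and Cd3e) had a peak within 1 kb of their start, with a summed level of 162.6 to 217.1 CPM across the libraries. By contrast, 3 of 5 B cell markers, 2 of 5 myeloid markers, 4 of 5 markers of lung epithelium and endothelium, 2 of 5 CD8 and NK cell markers and 4 of 4 eosinophil and mast cell markers had no peak there. The CD8 and NK cell markers summed to 32.8 to 34.3 CPM in Vps34-deficient lung and 23.1 to 27.6 CPM in lung controls without overlap, and to 25.98 to 37.5 and 28.1 to 32.5 CPM in Vps34-deficient and control spleen, and their part in the genotype values was not tested.

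The receptors are membrane proteins coupled to inhibitory G proteins, and each follows a gradient of one or a few secreted chemokines. Cxcr3 and Cxcr6 are best known from T cells drawn to inflamed tissue by Cxcl9 and Cxcl10 or by Cxcl16, Ccr4 and Ccr8 from T cells of skin and other barrier tissues, and Ccr2 and Ccr3 from monocytes and eosinophils as well as from activated T cells. Ccr6 and Cxcr5 lead lymphocytes to mucosal sites and B cell follicles, and Cxcr4 responds to Cxcl12 in bone marrow and many other tissues.

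The sequences of 4 member peaks, each called in a comparison described below, are given first, and those of the other called peaks are not shown. They were read from the GRCm38 genome, plus strand, as 300 bases about the middle of each peak, and the coordinates given here are those of the 300 bases. Capitals mark matches on either strand to 4 of the 5 motifs searched, AP-1 (TGANTCA), NF-kB (by name), RUNX (TGTGGT) and ETS (CCGGAA), and the fifth, the KLF-type CACCC, is not marked. The peaks behind the Cxcr6 window (chr9:123814406-123814705) and the Cxcr3 window (chrX:101735038-101735337), which is longer than its peak, were less accessible in Vps34-deficient Tregs of both tissues, that of the Ccr8 window (chr9:120091197-120091496) was less accessible in Vps34-deficient lung Tregs, and that of the Ccr2 window (chr9:124100647-124100946) was more accessible in lung than in spleen control Tregs.
Cxcr6 peak: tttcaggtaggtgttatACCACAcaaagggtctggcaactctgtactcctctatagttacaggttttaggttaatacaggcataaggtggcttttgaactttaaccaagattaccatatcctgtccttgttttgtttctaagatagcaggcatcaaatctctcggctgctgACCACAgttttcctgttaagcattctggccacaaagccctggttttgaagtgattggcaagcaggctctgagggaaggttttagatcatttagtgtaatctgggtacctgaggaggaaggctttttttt
Cxcr3 peak: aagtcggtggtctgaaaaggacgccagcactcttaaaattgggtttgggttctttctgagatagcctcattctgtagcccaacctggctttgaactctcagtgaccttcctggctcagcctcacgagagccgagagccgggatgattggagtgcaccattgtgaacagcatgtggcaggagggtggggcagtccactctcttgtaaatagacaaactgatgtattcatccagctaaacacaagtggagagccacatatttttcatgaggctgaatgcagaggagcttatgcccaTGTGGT
Ccr8 peak: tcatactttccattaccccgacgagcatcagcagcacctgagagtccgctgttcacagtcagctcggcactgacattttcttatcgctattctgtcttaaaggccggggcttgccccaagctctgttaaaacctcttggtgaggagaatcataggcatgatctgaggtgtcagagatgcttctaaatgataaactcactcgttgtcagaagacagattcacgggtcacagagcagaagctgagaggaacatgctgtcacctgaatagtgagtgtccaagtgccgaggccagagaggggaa
Ccr2 peak: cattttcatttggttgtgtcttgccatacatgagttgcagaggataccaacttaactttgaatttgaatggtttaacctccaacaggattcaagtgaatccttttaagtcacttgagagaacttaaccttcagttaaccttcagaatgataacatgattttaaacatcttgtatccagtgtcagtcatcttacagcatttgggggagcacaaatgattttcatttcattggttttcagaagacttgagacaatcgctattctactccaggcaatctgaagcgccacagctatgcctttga

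The Cxcr6 window held 2 RUNX matches and the Cxcr3 window 1, which lies beyond the edge of its peak, and neither the Ccr8 nor the Ccr2 window held a match to any of the 5 motifs. Over the windows of all 61 peaks, 20 held the RUNX motif (32.8%, against 26.5% of all peaks), 8 the AP-1 motif (13.1% against 12.97%), 3 the NF-kB motif (4.92% against 5.70%), 5 the ETS motif (8.20% against 8.17%) and 34 the CACCC motif (55.7% against 56.0%). A match describes letters in the window and not a bound site. Of the windows of the 5 peaks that were less accessible in Vps34-deficient Tregs of either tissue, 2 held a RUNX match, that of Cxcr3 included, 3 a CACCC match and 0 an AP-1, NF-kB or ETS match.

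To compare the receptors with each other, counts were summed over the peaks of each gene and divided by the summed peak width. Per kb of peak, Ccr8 had the highest mean level over the 10 libraries (32.1 CPM per kb, range 24.6 to 35.9), followed by Cxcr4 (25.9), Cxcr5 (21.3), Cxcr6 (20.3), Ccr4 (17.2), Ccr2 (15.6), Ccr3 (12.99), Ccr6 (9.05) and Cxcr3 (6.01, range 3.20 to 11.3). Each gene's range over the libraries overlapped that of the next gene in this order, and the order differed between groups. In lung controls Cxcr6 (26.7) and Ccr2 (22.8) stood above Cxcr5 (20.2), and in spleen controls Cxcr6 (22.6) stood above Cxcr5 (20.4). At Cxcr3 the 4 control libraries and the 6 Vps34-deficient libraries did not overlap.

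**Figure D1:**
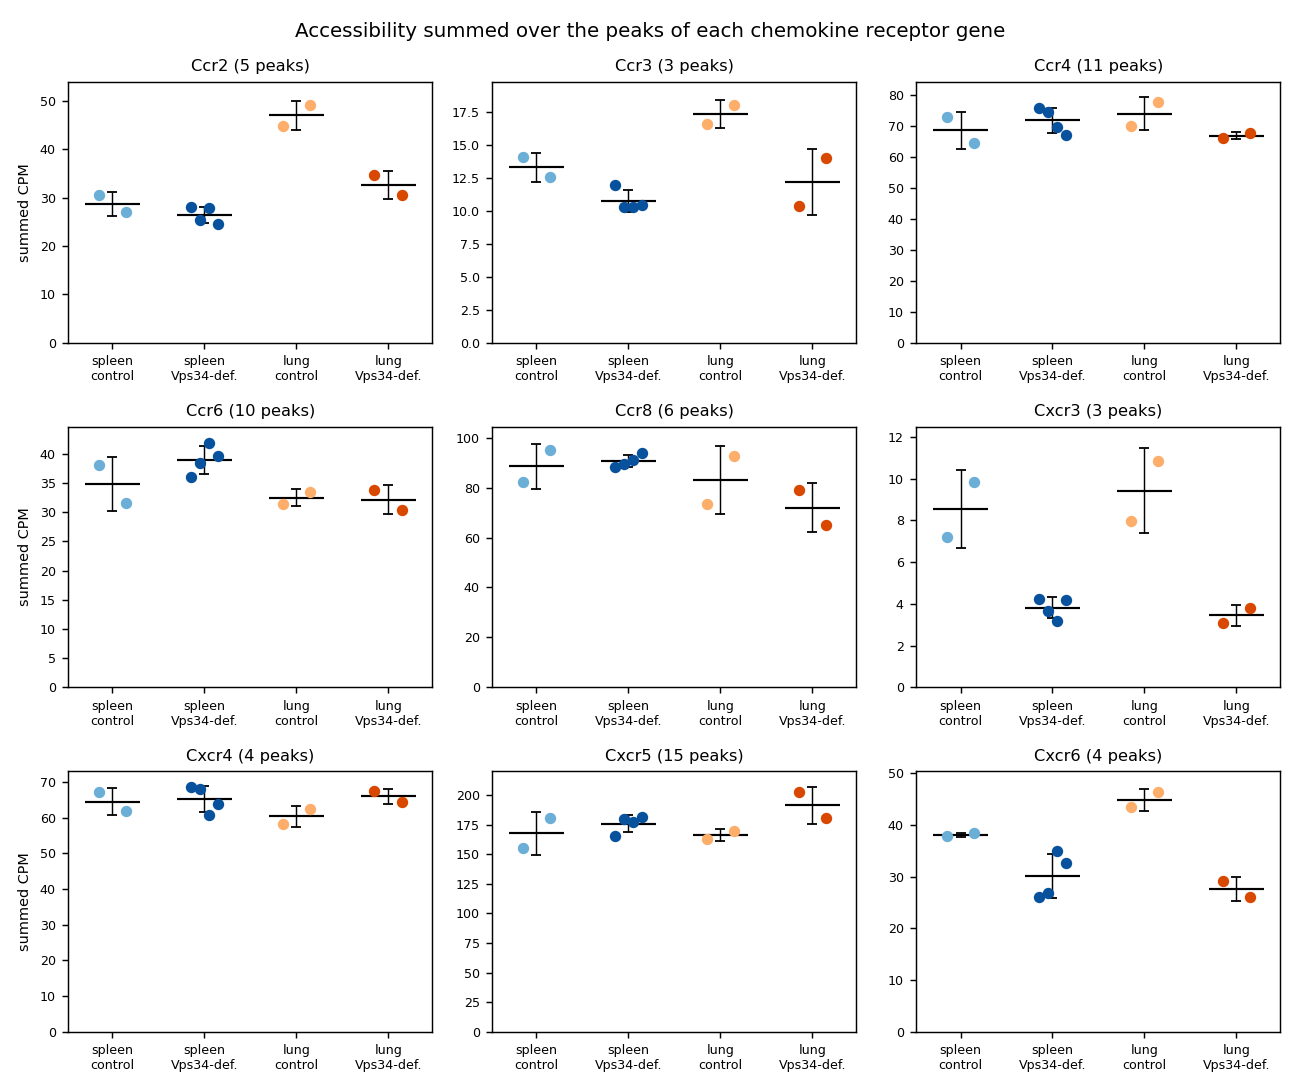
CPM (counts scaled to the library total) summed over the peaks of each receptor gene, with 1 point per library, the group mean as a horizontal line and the standard deviation as an error bar. At Cxcr3 and Cxcr6, all Vps34-deficient libraries lay below all controls of the same tissue, and at Ccr2 the 2 lung controls lay above all other libraries.

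For each gene, the summed counts were tested for a tissue effect averaged over the genotypes and for a genotype effect averaged over the tissues, with the quasi-likelihood test of edgeR over 17603 genes. A call required that p, adjusted over all genes by the Benjamini-Hochberg procedure, fell below 0.05 and that the log2 fold change exceeded 0.5 in either direction. For genotype, 2 of the 9 receptors, Cxcr3 and Cxcr6, were called lower in Vps34-deficient Tregs and 0 higher, where 1.27% of all genes were called lower and 1.3% higher. For tissue, 1 receptor, Ccr2, was called higher in lung and 0 lower, where 10.3% of all genes were called higher and 1.33% lower. At an unadjusted p below 0.05, 4 of the 9 differed for genotype and 2 for tissue, against 25.6% and 40.5% of all genes. The median log2 fold change of the 9 genes was -0.10 for genotype and 0.07 for tissue, against -0.03 and -0.02 over all genes.

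**Figure D2:**
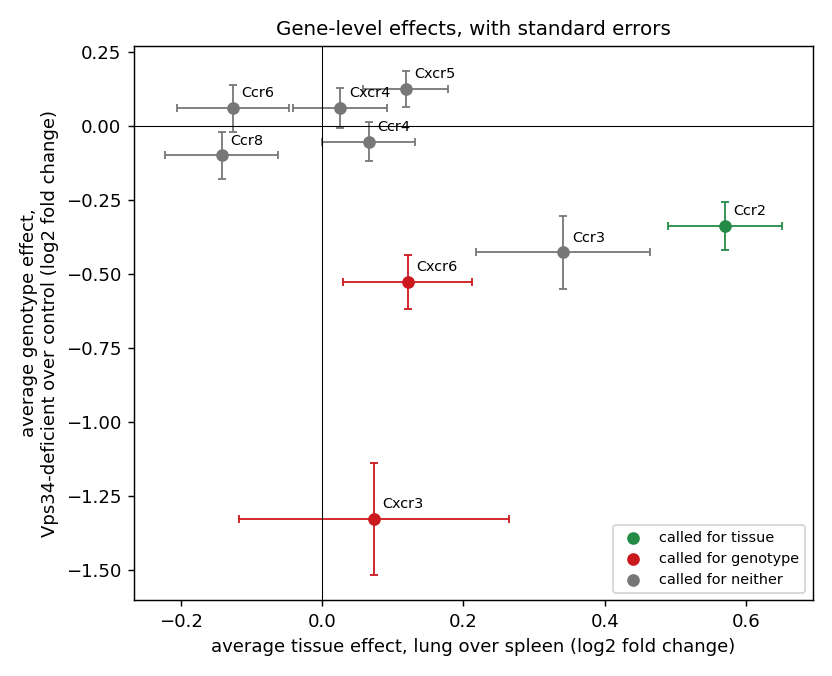
Average genotype effect against average tissue effect of each receptor gene (log2 fold change), with standard errors as bars and colours for the calls. Cxcr3 (-1.33) and Cxcr6 (-0.53) sit low on the genotype axis, Ccr2 (0.57) sits furthest right on the tissue axis, and the 2 effects of a gene come from the same 10 libraries.

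Cxcr3, the receptor for Cxcl9 and Cxcl10 on Th1-type T cells, had the largest genotype effect among the 9. Its 3 peaks summed to 7.22 and 9.85 CPM in spleen controls and to 4.24, 3.67, 3.16 and 4.16 CPM in Vps34-deficient spleen libraries. In lung they summed to 7.97 and 10.9 CPM in controls and to 3.09 and 3.81 CPM in Vps34-deficient libraries. Every Vps34-deficient library lay below every control in both tissues. The average log2 fold change was -1.33 (SE 0.189, adjusted p = 0.000639 by edgeR), and it ran from -1.44 to -1.19 over the alternatives tried, with the call made in each. Within spleen the effect was -1.16 (adjusted p = 0.0498) and within lung -1.49 (adjusted p = 0.0115), neither refitted with single libraries left out. The tissue effect was 0.07 (SE 0.191, adjusted p = 0.81).

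Within Cxcr3, the largest difference lay at a peak of 268 bp upstream of the gene, 785 bp from its start and between genes (chromosome X, 101735054 to 101735321). Spleen controls held 32 and 24 counts there, or 1.43 and 1.653 CPM, and Vps34-deficient spleen libraries 2, 6, 0 and 6 counts, or 0.139, 0.367, 0 and 0.431 CPM. Lung controls held 24 and 36 counts, or 2.55 and 2.54 CPM, and Vps34-deficient lung libraries 0 and 2 counts, or 0 and 0.212 CPM. The groups did not overlap in either tissue, and the Vps34-deficient libraries were near the detection limit. With so few counts there, the peak passed the filter on low counts through the control libraries, so the tests that follow describe it and add no support. Pooled over libraries, the control level was 7.23 times the Vps34-deficient level in spleen and 27.7 times in lung, with 95% counting intervals (exact binomial, on halved counts since mates come in pairs) of 3.09 to 19.6 and of 4.60 to 1130, so the size of the lung difference is poorly known. The fitted log2 fold change was -2.76 in spleen (SE 0.682, adjusted p = 0.0382) and -4.67 in lung (SE 1.046, adjusted p = 0.00872). In spleen the call was lost without spleen control replicate 1 (-2.92), spleen control replicate 2 (-2.68) or spleen Vps34-deficient replicate 1 (-2.66). It was also lost there with the replicate number as a block. In lung the call was lost without Vps34-deficient replicate 1 (-3.49). With a minimum mean of 1 CPM the peak was not tested.

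The other 2 Cxcr3 peaks also had negative genotype values in both tissues, without passing the test. At the peak over the start of the gene, in the coding exon, spleen controls held 2.76 and 2.07 CPM and Vps34-deficient spleen libraries 0.979 to 1.53 CPM, for a log2 fold change of -1.02 (adjusted p = 0.212). In lung the value was -0.90 (adjusted p = 0.329), and it was -0.08 without lung control replicate 2. At the highest Cxcr3 peak, 2909 bp upstream, the values were -0.93 in spleen (adjusted p = 0.129) and -1.18 in lung (adjusted p = 0.0818). In spleen, leaving out control replicate 1 gave -1.43 and leaving out control replicate 2 gave -0.39. The gene lies on chromosome X. Chromosome Y peaks held 56.9 to 67.6 CPM in 5 libraries and 7.03 to 21.4 CPM in the remaining 5, split evenly within each group, and with this signal as a covariate the upstream peak had values of -2.92 in spleen and -4.79 in lung, both called.

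Cxcr6, the receptor for Cxcl16, lies on chromosome 9 within the larger gene Fyco1. Its 4 peaks summed to 37.8 and 38.4 CPM in spleen controls and to 26.2, 26.9, 34.9 and 32.6 CPM in Vps34-deficient spleen libraries. In lung they summed to 43.4 and 46.3 CPM in controls and to 29.2 and 26.04 CPM in Vps34-deficient libraries. The groups did not overlap in either tissue. The average genotype effect was -0.53 (SE 0.0905, adjusted p = 0.0026 by edgeR), and the tissue effect 0.12 (SE 0.0908, adjusted p = 0.339). The genotype effect was called within lung (-0.72, adjusted p = 0.0104) and was -0.33 within spleen (adjusted p = 0.309, not called), neither refitted with single libraries left out. Since the value lies close to the fold threshold, the call was lost without spleen control replicate 2 (-0.50), lung control replicate 2 (-0.50) or lung Vps34-deficient replicate 2 (-0.47), and with offsets fitted against abundance (-0.47), though the adjusted p stayed at or below 0.0224 in each.

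Among the Cxcr6 peaks, 1 was called for genotype, 7777 bp downstream of the start, past the end of Cxcr6 and in an intron of Fyco1 (chromosome 9, 123814252 to 123814858). Spleen controls held 10.5 and 10.9 CPM and Vps34-deficient spleen libraries 5.98, 3.55, 4.60 and 4.16 CPM. Lung controls held 14.03 and 17.2 CPM and Vps34-deficient lung libraries 4.39 and 6.56 CPM. In both tissues the highest Vps34-deficient library was below the lowest control. The log2 fold change was -1.22 in spleen (SE 0.211, adjusted p = 0.00223) and -1.56 in lung (SE 0.262, adjusted p = 0.00073). The lung call held without each library in turn and in every other alternative. The spleen call was kept in 20 of 21 alternatives and lost with the replicate number as a block. At the peak over the Cxcr6 start, spleen controls held 21.1 and 22.3 CPM and Vps34-deficient spleen libraries 14.9 to 24.0 CPM, lung controls 23.0 and 23.8 CPM and Vps34-deficient lung libraries 19.5 and 14.4 CPM. The spleen groups overlapped there, the Vps34-deficient lung libraries lay below the lung controls without overlap, and the log2 fold changes of -0.10 (adjusted p = 0.858) and -0.48 (adjusted p = 0.176) did not pass the test. Which gene the downstream peak acts on was not measured.

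Over all receptors, 2 of 61 peaks were called less accessible in Vps34-deficient spleen Tregs (3.28%, against 1.02% of all peaks) and 0 more accessible (0.44% of all peaks), the pair being the Cxcr3 and Cxcr6 peaks above. In lung 5 of 61 were called less accessible (8.20%, against 3.74% of all peaks) and 0 more accessible (1.22% of all peaks). The lung count was 2 in the lung libraries alone and 2 to 5 with single libraries left out. At an unadjusted p below 0.05, 11 member peaks differed in spleen and 19 in lung, higher and lower together, against 14.3% and 20.3% of all peaks. DESeq2 called 0 member peaks more accessible in either tissue, whereas halved counts gave 1 in each tissue, and library-size scaling or the spleen libraries alone gave 1 in spleen. The median log2 fold change of the 61 peaks was 0.01 in spleen and -0.08 in lung, against 0.05 and 0.02 over all peaks. The Cxcr6 peak was called in spleen and in lung. These comparisons share no library, but they share a spread estimated over all libraries, and whether they share animals is not known. The Cxcr3 peak, which passed the filter through the controls, is counted in both tissues. The 3 further lung calls were at Ccr8 and Ccr2.

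**Figure D3:**
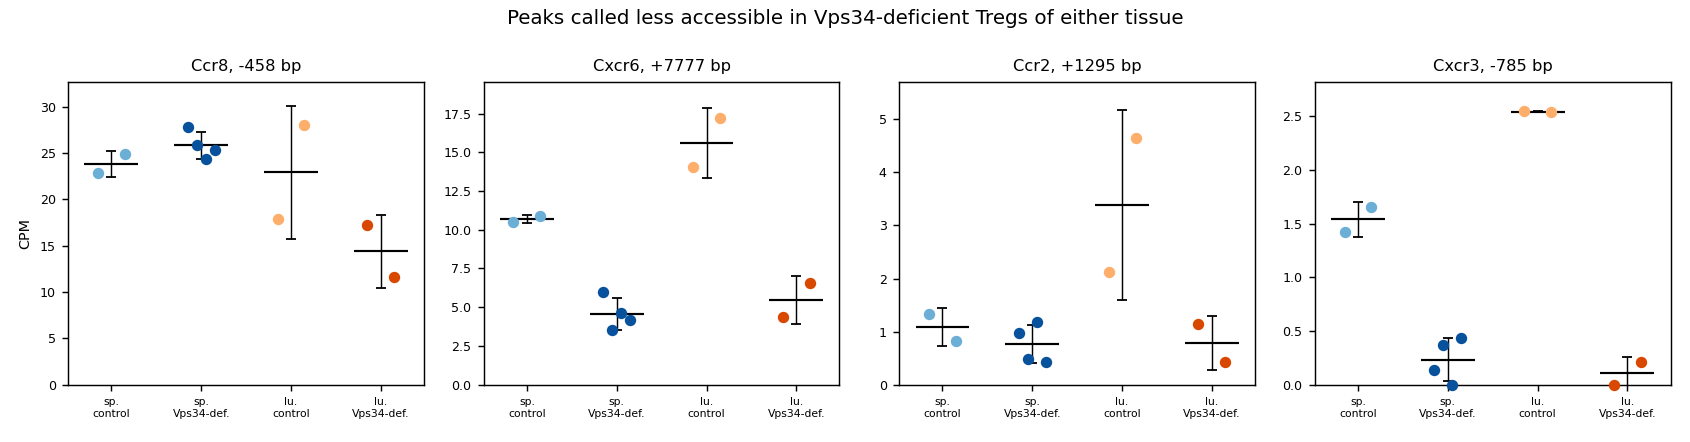
CPM (counts scaled to the library total) at 4 of the 5 peaks called less accessible in Vps34-deficient Tregs of either tissue, titled by gene and distance from its start, with 1 point per library, group means as lines and standard deviations as bars. The Cxcr6 and Cxcr3 peaks were called in both tissues. Those at Ccr8 and Ccr2 were called in lung alone, where the 2 lung controls lie apart, and the genotype effects of lung and spleen were not shown to differ.

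**Figure D4:**
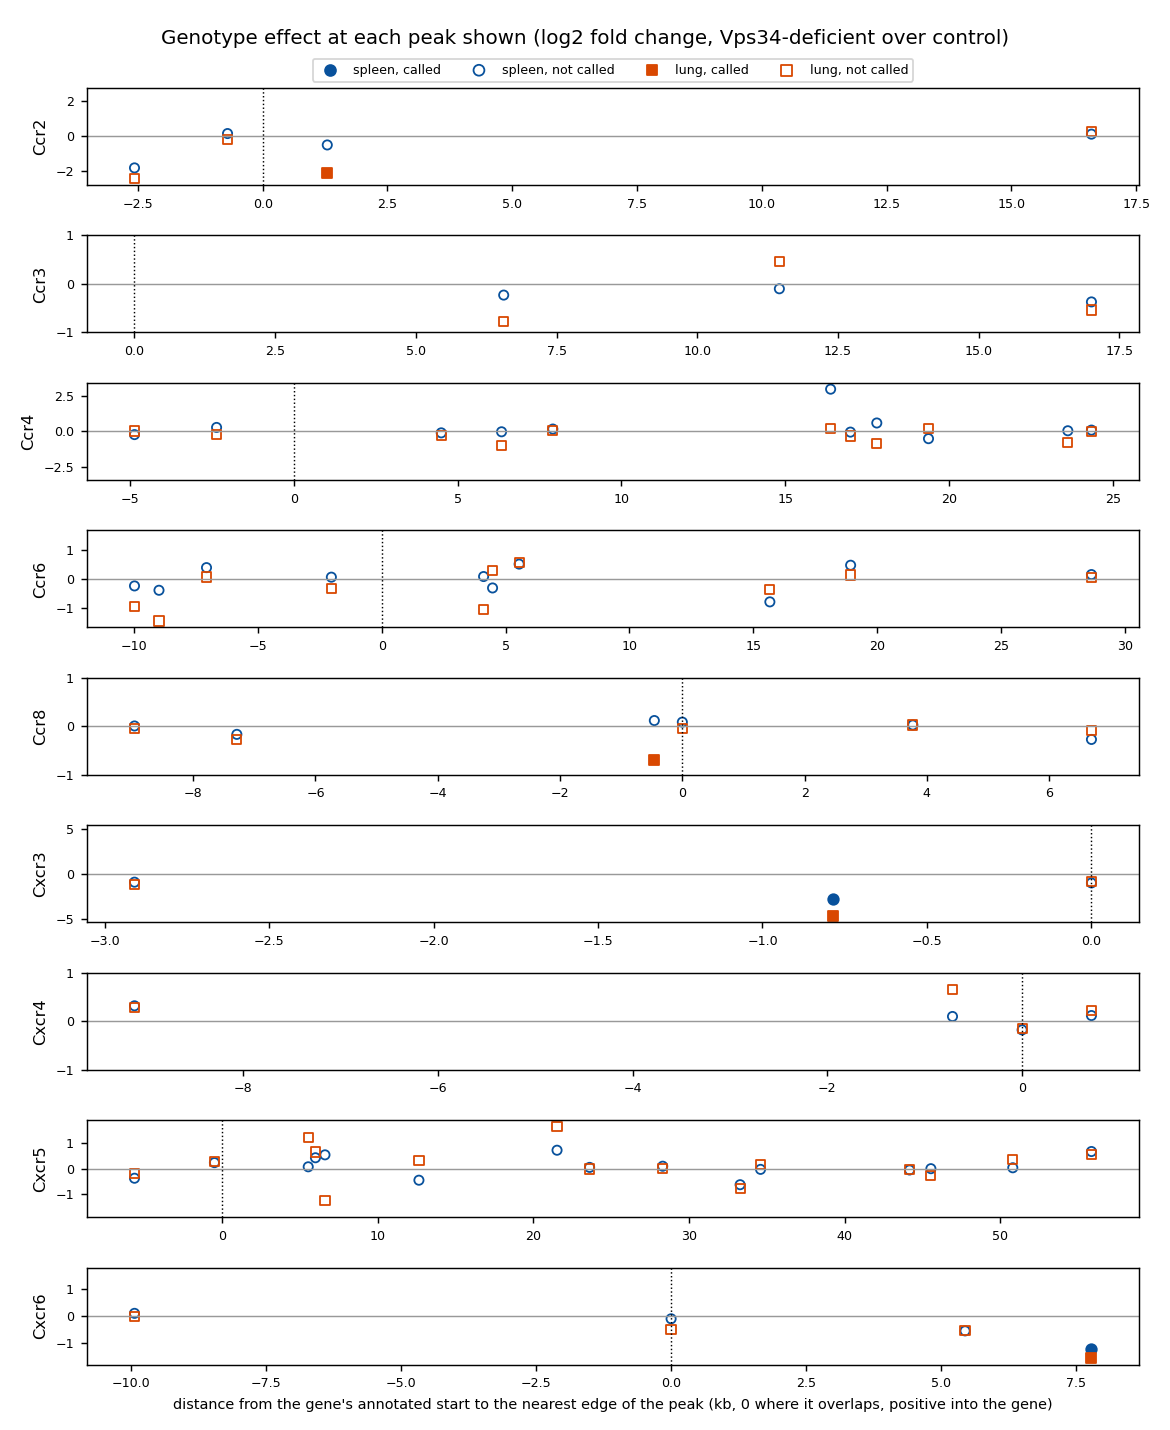
Log2 fold change for genotype at 60 of the 61 peaks against its distance in kb from the annotated start of the gene (positive into the gene; the horizontal scale differs between genes), in spleen (circles) and lung (squares). Filled symbols are called peaks, and all 6 of them lie below 0.

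Ccr8, which binds Ccl1 and Ccl8 and is carried by Tregs of barrier tissues, had the most accessible chromatin per kb. Summed over 6 peaks it held 82.1 and 95.0 CPM in spleen controls, 88.1 to 93.7 CPM in Vps34-deficient spleen, 73.6 and 92.7 CPM in lung controls and 78.9 and 65.0 CPM in Vps34-deficient lung. The genotypes overlapped in each tissue, Vps34-deficient lung lay below Vps34-deficient spleen without overlap, and neither the genotype effect (-0.10, adjusted p = 0.472) nor the tissue effect (-0.14, adjusted p = 0.199) was called. At the peak over the Ccr8 start, the highest of the gene, levels were 27.1 and 32.2 CPM in spleen controls, 30.8 to 31.7 in Vps34-deficient spleen, 24.8 and 23.9 in lung controls and 26.3 and 21.4 in Vps34-deficient lung, and no comparison was called.

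A neighbouring Ccr8 peak, 458 bp upstream of the start and between genes (chromosome 9, 120091037 to 120091656), was lower in Vps34-deficient lung. It held 22.9 and 24.9 CPM in spleen controls, 27.8, 25.9, 24.4 and 25.3 CPM in Vps34-deficient spleen, 17.9 and 28.01 CPM in lung controls, and 17.2 and 11.6 CPM in Vps34-deficient lung. Both Vps34-deficient lung libraries were below every other library, but lung control replicate 1 lay within 1 CPM of the upper one. The genotype effect in lung was -0.69 (SE 0.2, adjusted p = 0.0429) and that in spleen 0.12 (adjusted p = 0.82). The tissue effect in Vps34-deficient Tregs was -0.78 (SE 0.176, adjusted p = 0.00328), and it shares the Vps34-deficient lung libraries with the genotype effect. The lung genotype call was kept in 9 of 21 alternatives. Among others it was lost without lung control replicate 2 (-0.27), lung Vps34-deficient replicate 2 (-0.37), spleen control replicate 1 (-0.66) or 2 (-0.61), or spleen Vps34-deficient replicate 2 (-0.70) or 4 (-0.69), and in the lung libraries alone (-0.69, adjusted p = 0.209). The tissue call was lost without lung Vps34-deficient replicate 2 (-0.47). The difference between the lung and spleen genotype effects was -0.81 (SE 0.258), the smallest adjusted p of any member interaction, 0.454.

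Ccr2, the receptor for Ccl2 on monocytes and on tissue-homing T cells, was more accessible in lung on average over the genotypes. Its 5 peaks summed to 30.5 and 27.0 CPM in spleen controls, 27.96, 25.3, 27.8 and 24.5 CPM in Vps34-deficient spleen, 44.9 and 49.1 CPM in lung controls, and 34.6 and 30.5 CPM in Vps34-deficient lung. The lung controls stood above all other libraries, and the lower Vps34-deficient lung library was level with the highest spleen library. Within controls the tissue effect was 0.78 (adjusted p = 0.00103 by edgeR) and called. Within Vps34-deficient Tregs it was 0.35 (adjusted p = 0.0317), below the fold threshold. These values were not shown to differ (interaction -0.43, adjusted p = 0.747). The average tissue effect was 0.57 (SE 0.0806, adjusted p = 7.82e-05 by edgeR) and fell to 0.48 without lung control replicate 2 and 0.49 without spleen Vps34-deficient replicate 2, below the fold threshold. The average genotype effect, -0.34 (SE 0.0806, adjusted p = 0.0203), passed the p threshold but not the fold threshold. Within lung the genotype effect was -0.55 (adjusted p = 0.0199) and called, and within spleen it was -0.12 (adjusted p = 0.79), neither refitted with single libraries left out. With a window of 5 kb in place of 10 kb, the average tissue effect of Ccr2 was 0.55 (adjusted p = 0.00704) and its average genotype effect -0.20 (adjusted p = 0.404).

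Within that nearer window, 2 Ccr2 peaks were called more accessible in lung controls than in spleen controls. The peak 703 bp upstream of the start (chromosome 9, 124100346 to 124101247) held 5.79 and 5.23 CPM in spleen controls, 7.65, 6.61, 5.42 and 5.17 CPM in Vps34-deficient spleen, 8.08 and 10.2 CPM in lung controls and 7.47 and 9.10 CPM in Vps34-deficient lung. Its tissue effect in controls was 0.81 (SE 0.251, adjusted p = 0.0291), and the value in Vps34-deficient Tregs was 0.46 (adjusted p = 0.149). The call was lost without spleen control replicate 1 (0.78) or 2 (0.69), spleen Vps34-deficient replicate 2 (0.72) or 3 (0.72), or lung control replicate 2 (0.53). The second peak, 1295 bp into the gene in an untranslated exon (chromosome 9, 124103245 to 124103448), held 0.827 to 1.34 CPM in spleen controls, 0.431 to 1.17 CPM in Vps34-deficient spleen, 2.13 and 4.66 CPM in lung controls and 1.14 and 0.423 CPM in Vps34-deficient lung. Its counts were low, from 4 to 66 a library. Its tissue effect in controls was 1.72 (adjusted p = 0.0374), and its genotype effect in lung was -2.11 (adjusted p = 0.0442). Without lung control replicate 2 these were 0.93 and -1.37, and neither was called. The tissue call was also lost without spleen control replicate 1 (2.02) or 2 (1.38) or spleen Vps34-deficient replicate 1 (1.63) or 2 (1.63), and the genotype call without spleen control replicate 1 (-2.07) or 2 (-2.03), spleen Vps34-deficient replicate 1 (-2.12), or lung Vps34-deficient replicate 1 (-2.95) or 2 (-1.53).

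Ccr2 is also abundant on monocytes, which the sort for TCRb+ CD4+ Foxp3-YFP+ cells would remove, and the peaks near 4 myeloid markers (Lyz2, Itgam, Csf1r and Cd14) summed to 7.65 to 8.73 CPM in spleen controls, 5.29 to 8.85 CPM in Vps34-deficient spleen, 10.2 to 10.7 CPM in lung controls and 6.35 to 6.82 CPM in Vps34-deficient lung. This sum too was highest in the lung controls, and it came from Cd14 and Itgam, since Lyz2 and Csf1r had no peak within 1 kb of the start. The part of the myeloid signal in the Ccr2 values was not tested. As in any bulk assay, a change in the share of cells with an open site cannot be told apart from a change within each cell.

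Ccr3, the eotaxin receptor best known from eosinophils, had 3 peaks with low levels. They summed to 14.1 and 12.5 CPM in spleen controls, 11.96, 10.3, 10.3 and 10.5 CPM in Vps34-deficient spleen, 16.6 and 18.1 CPM in lung controls, and 10.4 and 13.97 CPM in Vps34-deficient lung. Vps34-deficient libraries were below the controls of their tissue without overlap. The average genotype effect of -0.43 (SE 0.122, adjusted p = 0.0443) and the tissue effect of 0.34 (SE 0.123, adjusted p = 0.0469) passed the p threshold and not the fold threshold. Without lung Vps34-deficient replicate 2 the genotype effect was -0.52 and called. With a window of 5 kb in place of 10 kb, the tissue effect was 0.69 and called. At the Ccr3 peak in the coding exon, 6560 bp from the start (chromosome 9, 124028532 to 124028927), spleen controls held 3.03 and 2.48 CPM, Vps34-deficient spleen libraries 2.08 to 2.73 CPM, lung controls 5.10 and 7.34 CPM and Vps34-deficient lung libraries 2.92 and 4.66 CPM. Its tissue effect in controls was 1.26 (SE 0.325, adjusted p = 0.00985), and the call was lost without spleen control replicate 1 (1.31) or 2 (1.07) or lung control replicate 2 (0.86). In Vps34-deficient Tregs the value was 0.72 (adjusted p = 0.0983), and it was called without lung Vps34-deficient replicate 1 (1.09). No eosinophil or mast cell marker examined (Siglecf, Epx, Cpa3 and Ms4a2) had a peak near its start.

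Ccr4, the receptor for Ccl17 and Ccl22, had similar summed levels in all groups, with 73.0 and 64.5 CPM in spleen controls, 67.2 to 75.9 CPM in Vps34-deficient spleen, 70.2 and 77.8 CPM in lung controls and 66.1 and 67.7 CPM in Vps34-deficient lung. Its highest peak overlaps the start of a shorter transcript, 7906 bp into the gene, and held 24.1 to 34.3 CPM over the 10 libraries, with no call in any comparison. Of its 11 peaks, 3 weaker ones were called between tissues. A peak 17793 bp from the start, past the end of the gene (chromosome 9, 114486833 to 114487123), held 0.891 and 1.38 CPM in spleen controls, 1.25 to 1.96 CPM in Vps34-deficient spleen, 3.402 and 4.52 CPM in lung controls and 1.79 and 2.75 CPM in Vps34-deficient lung. Its tissue effect in controls was 1.91 (SE 0.425, adjusted p = 0.00331), lost without spleen control replicate 1 (1.502). A second, 23623 bp from the start, held 2.67 and 2.48 CPM in spleen controls against 5.32 and 4.66 CPM in lung controls. Its value of 1.02 (adjusted p = 0.0421) was called in only 5 of 21 alternatives, and of the libraries left out in turn, the call was kept only without spleen Vps34-deficient replicate 4 or either Vps34-deficient lung library. The values without the other 7 ran from 0.85 to 1.02. The third, 6341 bp into the gene in an intron, was lower in lung than in spleen Vps34-deficient Tregs, at 3.41 and 3.81 CPM against 5.26 to 9.74 CPM (log2 fold change -0.83, SE 0.275, adjusted p = 0.0375). That call was lost without spleen control replicate 2 (-0.77), spleen Vps34-deficient replicate 1 (-0.64), or lung Vps34-deficient replicate 1 (-0.69) or 2 (-0.84). Without spleen Vps34-deficient replicate 1, its genotype effect in lung, -0.99 (adjusted p = 0.0647), was called at -1.003.

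Ccr6, which binds Ccl20, summed to 38.1 and 31.6 CPM in spleen controls, 36.1 to 41.9 CPM in Vps34-deficient spleen, 31.5 and 33.5 CPM in lung controls and 33.9 and 30.4 CPM in Vps34-deficient lung. The genotypes overlapped in each tissue, and Vps34-deficient lung lay below Vps34-deficient spleen without overlap. Its highest peak, in an untranslated exon, had genotype values of 0.51 in spleen (adjusted p = 0.236) and 0.55 in lung (adjusted p = 0.2016). Between tissues in controls, 1 Ccr6 peak was lower and 1 higher in lung. The peak 4475 bp into the gene, in an intron (chromosome 17, 8240518 to 8240778), held 4.63 and 5.03 CPM in spleen controls, 3.30 to 4.40 CPM in Vps34-deficient spleen, 2.13 and 1.69 CPM in lung controls and 2.92 and 1.69 CPM in Vps34-deficient lung. The tissue groups did not overlap in either genotype. The log2 fold change in controls was -1.27 (SE 0.351, adjusted p = 0.0146), lost without spleen control replicate 1 (-1.44) or 2 (-1.26) or lung control replicate 2 (-1.20), and in Vps34-deficient Tregs -0.67 (adjusted p = 0.143). The other, 9984 bp upstream at the edge of the window, held 4 to 12 counts in spleen controls and 16 and 32 counts in lung controls (2.31, adjusted p = 0.0422). It passed the filter on low counts through the lung libraries, where it is high, so this call describes it and adds no support. It was lost without spleen control replicate 1 (2.79) or 2 (1.91), spleen Vps34-deficient replicate 2 (2.22) or 3 (2.22), lung control replicate 1 (2.41) or 2 (1.99), or lung Vps34-deficient replicate 2 (2.252).

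Cxcr5, the receptor for Cxcl13 on follicular lymphocytes, had the most peaks and summed to 155 and 180.2 CPM in spleen controls, 165 to 182 CPM in Vps34-deficient spleen, 162 and 169.5 CPM in lung controls and 202 and 180.1 CPM in Vps34-deficient lung. Neither average effect was called (0.12 for tissue and 0.13 for genotype). Of its 15 peaks, 1 was called, and it lay outside Cxcr5 in a coding exon of the neighbouring gene Bcl9l (chromosome 9, 44505815 to 44506027). It held 14.97 and 20.4 CPM in spleen controls, 31.4, 28.01, 21.8 and 31.2 CPM in Vps34-deficient spleen, 52.7 and 30.5 CPM in lung controls and 58.8 and 65.8 CPM in Vps34-deficient lung. All lung libraries but lung control replicate 2 stood above the spleen libraries. The tissue effect was 1.30 in controls (SE 0.204, adjusted p = 0.000158) and 1.201 in Vps34-deficient Tregs (SE 0.165, adjusted p = 2.59e-05), and both were called in every alternative that held the peak. Without lung control replicate 2 or 1, the control value was between 0.80 and 1.57. The genotype effect at this peak was 0.68 in spleen (adjusted p = 0.0573) and 0.57 in lung (adjusted p = 0.0925). In spleen it was called without spleen Vps34-deficient replicate 3 (0.74) or lung control replicate 1 (0.64) or 2 (0.64), and in lung without lung control replicate 1 (1.10). At the Cxcr5 peak nearest the annotated start, 493 bp upstream, levels ran from 4.25 to 8.77 CPM over all libraries.

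Cxcr4, the receptor for Cxcl12, was the member with the least variation. Its 4 peaks summed to 67.1 and 61.8 CPM in spleen controls, 60.8 to 68.6 CPM in Vps34-deficient spleen, 58.3 and 62.4 CPM in lung controls and 67.5 and 64.3 CPM in Vps34-deficient lung. The peak over its start held 23.5 to 30.8 CPM. Of its 4 peaks, 0 were called in any comparison, and the average effects were 0.03 for tissue (SE 0.0666, adjusted p = 0.812) and 0.06 for genotype (SE 0.0667, adjusted p = 0.6).

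Counted over all receptors, 8 of 61 peaks were called more accessible in lung than in spleen control Tregs (13.1%, against 11.8% of all peaks) and 1 less accessible (1.64%, against 3.53%). In Vps34-deficient Tregs 1 was called more accessible in lung (1.64%, against 12.4% of all peaks) and 2 less accessible (3.28%, against 4.72%). The 8 calls in controls were 3 at Ccr2, 2 at Ccr4 and 1 each at Ccr3, Ccr6 and Cxcr5, with the Ccr6 peak that passed the filter through lung among them. At each of these 9 peaks the value in Vps34-deficient Tregs was closer to 0 than that in controls, which is no independent finding for peaks chosen on the control values, and it passed the test only at the Cxcr5 peak in Bcl9l. The 2 tissue effects were not shown to differ. The interaction of tissue and genotype was called at 0 of 61 member peaks and at 0% of all peaks by edgeR, with 4 member peaks and 7.28% of all peaks at an unadjusted p below 0.05, and DESeq2 called 0 of the 61. The number of member peaks called higher in lung controls was 3 without lung control replicate 2, 5 without lung control replicate 1, 1 without spleen control replicate 1 and 3 without spleen control replicate 2.

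**Figure D5:**
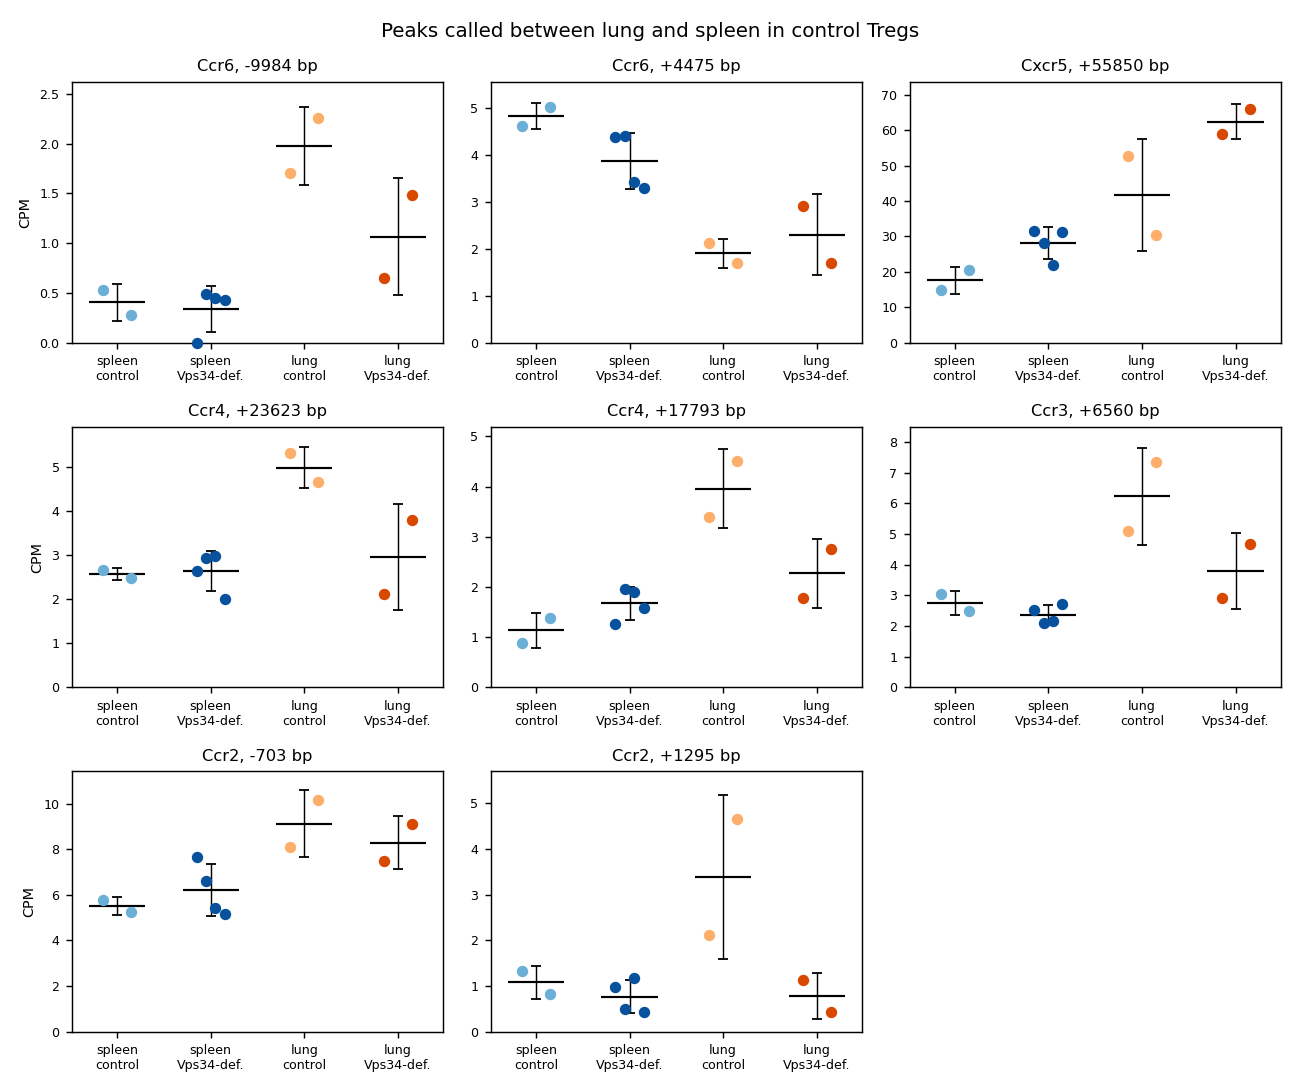
CPM (counts scaled to the library total) at 8 of the 9 peaks called between lung and spleen in control Tregs, titled by gene and distance from the start, with 1 point per library, group means as lines and standard deviations as bars. In 7 of the 8 panels the lung controls lie above the spleen controls, and at the Ccr6 peak at +4475 bp they lie below.

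Genes that work with these receptors were taken from 3 lists and read at gene level in the same way. Of all genes, 10.3% were called higher and 1.33% lower in lung, and 1.3% higher and 1.27% lower in Vps34-deficient Tregs, and the listed genes were not refitted with single libraries left out. Of 16 tested genes among 17 other chemoattractant and trafficking receptors, 3 rose in lung (Ackr4 0.90, Ackr3 1.12 and Ccr1 0.66), 0 fell in lung and 0 were called for genotype. Ackr4 is a scavenging receptor that takes up chemokines without signalling, and it held 5.83 ± 0.0685 CPM (SD, n = 2) in spleen controls and 11.5 ± 3.29 CPM (SD, n = 2) in lung controls. Of 15 tested genes among 19 ligands, 3 rose in lung (Ccl11 1.10, Ccl12 1.22 and Cxcl12 0.81) and 1 fell (Ccl20 -1.14), whereas 3 fell in Vps34-deficient Tregs (Ccl5 -0.83, Ccl7 -0.82 and Ccl3 -0.61) and 0 rose. Ccl20 and Ccl12 had low levels. Ccl20 held means of 1.49 CPM in control and 1.16 in Vps34-deficient spleen, and 1.13 in control and 0.268 in Vps34-deficient lung. Ccl12 held 0.952 and 1.82 CPM in control and Vps34-deficient spleen, 2.62 in lung controls and 3.35 ± 2.44 (SD, n = 2) in Vps34-deficient lung. Ccl5, a chemokine that effector lymphocytes secrete, held 13.5 ± 0.257 CPM (SD, n = 2) in spleen controls and 8.06 ± 0.736 CPM (SD, n = 4) in Vps34-deficient spleen, and 18.2 ± 2.59 CPM (SD, n = 2) in lung controls and 9.81 ± 2.20 CPM (SD, n = 2) in Vps34-deficient lung. The 1 peak of Ccl7 is also 1 of the 2 peaks counted for Ccl11. Of 32 genes of signal transduction behind the receptors, 1 rose in lung (Pik3r6, a regulatory subunit of the PI3K gamma kinase, 0.60), 0 fell in lung and 0 were called for genotype. The median log2 fold change for genotype was -0.09 for the other receptors, -0.17 for the ligands and -0.10 for the signalling genes, against -0.03 over all genes, and for tissue 0.16, 0.09 and -0.01 against -0.02.

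By likeness of pattern over the 10 libraries, with 10402 to 10420 genes compared for each receptor, the nearest genes were Tubb4a (Pearson's r = 0.987) and Nebl (0.982) for Ccr2, Plcd1 (0.983) and Tspan2 (0.978) for Ccr3, and Sdcbp2 (0.967) and Atp2b4 (0.967) for Cxcr3. For Cxcr6 they were Ppm1j (0.966) and Pafah2 (0.954), for Ccr8 B9d2 (0.974) and Usp30 (0.973), for Cxcr4 Cript (0.939) and Pigf (0.914), and for Cxcr5 Mtmr12 (0.936) and Tyw1 (0.933). Those of Ccr6 were Ppp1r13l (0.923) and Phf6 (0.923), and those of Ccr4, the least matched of the 9, Exosc8 (0.88) and Galc (0.861). These are the highest of many correlations across 10 libraries that share depth, tissue and genotype, and they are given as a description.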

How the data were processed

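The authors aligned paired-end ATAC-seq reads with BWA, removed duplicates, shifted read ends for the Tn5 insertion site, kept nucleosome-free fragments, called peaks per library with MACS2, retained a peak when 50% or more of a genotype's replicates had it, and joined overlapping peaks. The table they deposited holds raw read counts for each peak, without normalisation. Both mates were usually counted, since 91.5% to 96.5% of values in a library were even. The methods name an older assembly, but 51.1% of 21958 gene starts lay in a peak on GRCm38, against 1.98% to 2.82% after shifts, so GRCm38 (GENCODE annotation) was used. The methods give the spleen group sizes the other way round, and the labels were followed. Per the submitters' processing notes, MACS2 was version 2.1.0.20150603.

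Counts were filtered with filterByExpr, scaled with TMM factors and fitted with edgeR 4.0.16 (R 4.3.3) as 4 group means over all 10 libraries, with quasi-likelihood tests and Benjamini-Hochberg adjustment over all peaks or genes. DESeq2 1.42.0 was an alternative. The SE was the fold change divided by the root of F. Adjusted p below 0.05 with an absolute log2 fold change above 0.5, the study's thresholds, was a call. Gene-level counts summed the peaks in the gene and within 10 kb, and likeness used log2 CPM with a prior count of 2, over genes with at least 3 peaks and a mean of 20 CPM, more than 1 Mb away. The peaks named were, for each gene, the one at its start within 1 kb, the highest, and each called in any comparison. The members and lists were chosen with earlier results of these data known. On halved counts, replicates of a group differed by more than counting noise (chi-square of 1.40 to 2.98 per peak), so each library counted as 1 sample. The tests were tried on simulated data. Values of 1 member peak of Ccr2 and of 1 marker are not reported here singly.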

Additional observations from a re-analysis of the deposited data

Results flagged for a closer look

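In the group of 4 Vps34-deficient spleen libraries, the only group large enough to test, 1 library stood apart from the other 3 by Dixon's criterion on gap over range at 3 of 31 values, and chance alone flags about 1 group in 20. At the Ccr6 peak 9984 bp upstream of the start the ratio was 0.88, with replicate 1 at 0 counts and the others at 6 to 10. At the Ccr3 peak 17003 bp from the start it was 0.853, with replicate 1 at 8.35 CPM and the others at 6.60 to 6.86 CPM. For the sum over the Ccr3 peaks it was 0.879, with replicate 1 at 11.96 CPM and the others at 10.3 to 10.5 CPM. That sum contains the flagged Ccr3 peak.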

How the results depend on the processing

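Of 456 recomputed values of called peaks and genes, 356 kept their call, 100 lost it and 0 changed sign. Of 2359 recomputed values that were not called, 142 changed sign and 14 became called, 1 of them in the other direction: the tissue effect in Vps34-deficient Tregs at the Ccr3 peak 17003 bp from the start was 0.06, and -0.72 with loess offsets on GC content. Counts of member peaks called moved as follows. With library-size scaling there was 1 higher for genotype in spleen, and for tissue 2 were lower in controls and 4 in Vps34-deficient Tregs. Without a filter these tissue counts were 2 and 4. With a mean of at least 1 CPM there was 1 lower for genotype in spleen and 2 in lung, and 1 lower for tissue in Vps34-deficient Tregs. Halved counts gave 1 higher for genotype in each tissue and 2 lower for tissue in controls. The libraries compared alone gave 1 higher for genotype in spleen and 2 lower in lung. Loess offsets on abundance gave 5 higher for tissue in controls and 1 receptor lower for genotype at gene level. A 5 kb window gave 4 higher for tissue in controls, 0 in Vps34-deficient Tregs and 2 receptors higher at gene level. An adjusted p below 0.05 alone gave 2 receptors higher for tissue and 4 lower for genotype at gene level. An adjusted p below 0.1 gave 1 higher for genotype in each tissue, 8 lower for genotype in lung, and for tissue 2 lower in controls and 3 higher and 4 lower in Vps34-deficient Tregs. Leaving out each library in turn gave ranges of 0 to 1 higher and 1 to 2 lower for genotype in spleen, 0 to 2 higher and 2 to 5 lower in lung, 1 to 9 higher and 0 to 2 lower for tissue in controls, 1 to 2 higher and 0 to 4 lower in Vps34-deficient Tregs, and at gene level 0 to 1 higher for tissue and 1 to 2 lower for genotype. Where it left 1 library in an arm, that library was assumed to vary like the other groups. Apart from the thresholds, windows and filters, which change what is counted or tested, the cause of these shifts was not tested.

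Whether replicate numbers pair the samples is not known. Over peaks outside chromosomes X and Y, deviations of same-numbered libraries from their group means correlated at r = -0.0769 to 0.0154. With 2 libraries in most groups, this cannot settle it. Chromosome Y peaks held 56.9 and 67.6 CPM in spleen and lung control replicate 1, and 7.03 and 12.8 CPM in replicate 2. In Vps34-deficient spleen and lung they held 9.88 and 21.4 CPM in replicate 1, and 64.8 and 63.4 CPM in replicate 2. With the replicate number as a block, 0 member peaks were called lower for genotype in spleen and 2 in lung, 4 higher for tissue in controls and 1 lower in Vps34-deficient Tregs. The Cxcr3 peak 785 bp upstream of the start held at most 36 counts a library, which limits the precision of its fold change.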
